A study of Mus musculus with 15 samples.

Results

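Kidneys of mice given carbon tetrachloride (CCl4) and then ethanol (EtOH) were compared with kidneys of mice given CCl4 without ethanol. The comparison took 7 of the 15 samples of the series, chosen by their labels and not by any measured value: 3 in the CCl4+EtOH group and 4 in the CCl4 group. All were male C57BL/6 mice with no genetic change given. The CCl4+EtOH mice received CCl4 by intraperitoneal injection for 6 weeks and ethanol for the following 4 weeks, 10 weeks in all. Their titles repeat CCl4 before ethanol while their source descriptions name no CCl4 in the ethanol weeks, so whether CCl4 went on beside ethanol is not settled by the labels. CCl4 replicates 1 and 2 received CCl4 for 6 weeks. CCl4 replicates 3 and 4 received it for 6 weeks and then at a reduced dose for another 4 weeks, and only these are matched in time with the CCl4+EtOH mice. Against the 10-week mice, ethanol cannot be told apart from any difference in CCl4 over the last 4 weeks, and against the 6-week mice it cannot be told apart from the 4 further weeks. The labels do not state the route or amount of ethanol.

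CCl4 is a solvent that cytochrome P450 enzymes, above all Cyp2e1, turn into reactive radicals, and it is known for liver injury with the kidney as a further target. Ethanol is broken down by alcohol dehydrogenases and by Cyp2e1 to acetaldehyde, which aldehyde dehydrogenases clear. In the injured kidney, proximal tubule cells are known to lose transporters and oxidative enzymes, to switch on surface and secreted injury proteins, and to re-enter the cell cycle during repair.

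Each library held between 17.3 and 22.4 M read counts. Levels are CPM, that is, counts scaled to a common library size with TMM factors. Replicates differed beyond sampling noise in every pair. Along the first principal component, which held 64.1% of the variance, CCl4+EtOH replicates 1 and 2 lay at -72.3 and -70.3, CCl4+EtOH replicate 3 at -8.39, and the 4 CCl4 libraries between 31.8 and 45.8. CCl4+EtOH replicate 3 thus stood apart from its group, in the direction of the CCl4 libraries. Its median absolute difference per gene was 0.27 on the log2 scale against each of its own group, and between 0.19 and 0.21 against the 4 CCl4 libraries. Counts over all genes are therefore given below with and without it, as are the counts of some of the lists. Kidney markers were present throughout: Umod, made by the thick ascending limb, stood at 3521, 3855 and 4637 CPM in CCl4+EtOH kidneys, against 5255, 3774, 5324 and 4387 CPM in CCl4 kidneys.

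**Figure D1:**
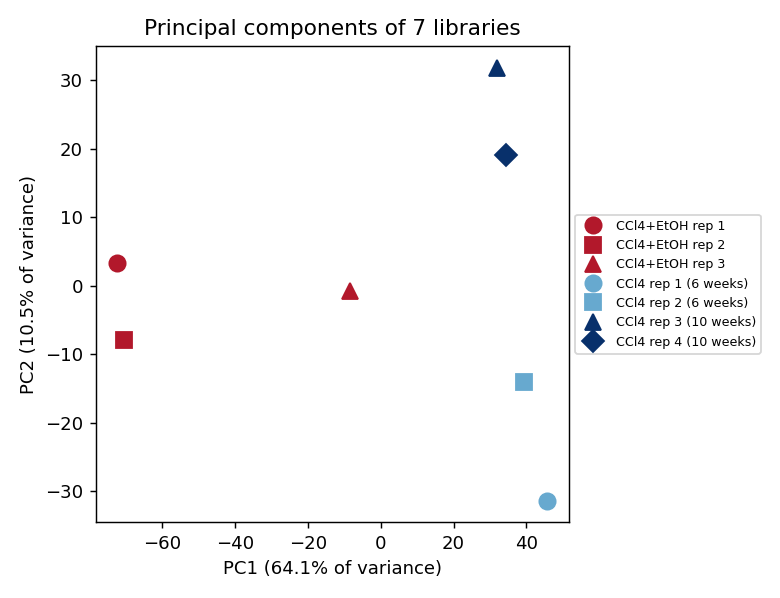
Principal components of the 7 libraries, with the first component on the x axis (64.1% of the variance) and the second on the y axis (10.5%); red marks CCl4+EtOH, dark blue 10-week CCl4 and light blue 6-week CCl4. CCl4+EtOH replicate 3 lies at -8.39 on the first axis, between its 2 group members and the CCl4 libraries, while the second axis places the 10-week libraries at 31.8 and 19.1 and the 6-week libraries at -31.3 and -14.1.

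Of 16105 genes tested, 3007 were higher in CCl4+EtOH kidneys than in CCl4 kidneys, which is 18.7%, and 2603 were lower, which is 16.2%. These calls are edgeR's quasi-likelihood test at a Benjamini-Hochberg adjusted p under 0.05, and every adjusted p below is from that test. By over 2-fold, 1164 genes (7.23%) were higher and 599 (3.72%) lower. The libraries of both groups did not overlap for 4554 of the 5610 called genes, and for 5649 of all genes tested (35.1%). The calls were made on the same libraries, so this separation is no further support for them. The median log2 change over all genes was 0.02. The test called 3766 genes higher (23.0%) and 3630 lower (22.1%) when CCl4+EtOH replicate 3 was left out. With CCl4+EtOH replicate 1 left out it called 1872 and 1608, and with replicate 2 left out 2005 and 1577.

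Genes of tubule injury and repair were among the most changed. Of 26 tested members of that list, 22 were higher in CCl4+EtOH kidneys and none was lower, with a median log2 change of 2.002. In bulk tissue, fewer cells of a type and less RNA per cell cannot be told apart, here and in all that follows. Havcr1, the surface receptor Kim-1 of injured proximal tubule cells, stood at 2000.4, 1151 and 108 CPM in CCl4+EtOH replicates 1 to 3, against 5.91, 5.08, 6.56 and 16.3 CPM in CCl4 replicates 1 to 4. Every CCl4+EtOH library lay above every CCl4 library, and replicate 3 lay far below replicates 1 and 2. The log2 change of Havcr1 was 7.02 ± 0.81 (SE, adjusted p = 1.47e-04).

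In the injury genes given next, CCl4+EtOH replicate 3 likewise lay between replicates 1 and 2 and the CCl4 libraries. Lcn2, a secreted iron-carrier-binding protein, stood at 405, 349 and 45.0 CPM in CCl4+EtOH kidneys, against 5.65, 2.66, 6.97 and 9.55 CPM in CCl4 kidneys, a log2 change of 5.44 ± 0.71 (SE, adjusted p = 2.70e-04). Spp1, the matrix glycoprotein osteopontin, stood at 34038, 24819 and 4338 CPM, against 1176, 1296, 917 and 1059 CPM in CCl4 kidneys, a log2 change of 4.24 ± 0.49 (SE, adjusted p = 1.18e-04). The groups did not overlap for either gene, and CCl4+EtOH replicate 3 was again the lowest of its group. Krt20, an intermediate filament keratin, changed by 6.20 ± 0.72 (SE), the adhesion molecule Vcam1 by 4.03 ± 0.43, the progenitor transcription factor Sox9 by 4.45 ± 0.45 and the cadherin Cdh6 by 3.83 ± 0.32 on the log2 scale. Timp1, which blocks matrix metalloproteinases, stood at 81.1, 45.9 and 6.30 CPM in CCl4+EtOH kidneys, against 0.777, 1.48, 3.07 and 1.64 CPM in CCl4 kidneys. For the list as a whole, the difference of CCl4+EtOH replicate 3 from the mean of the CCl4 libraries was 45.8% of that of replicates 1 and 2.

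**Figure D2:**
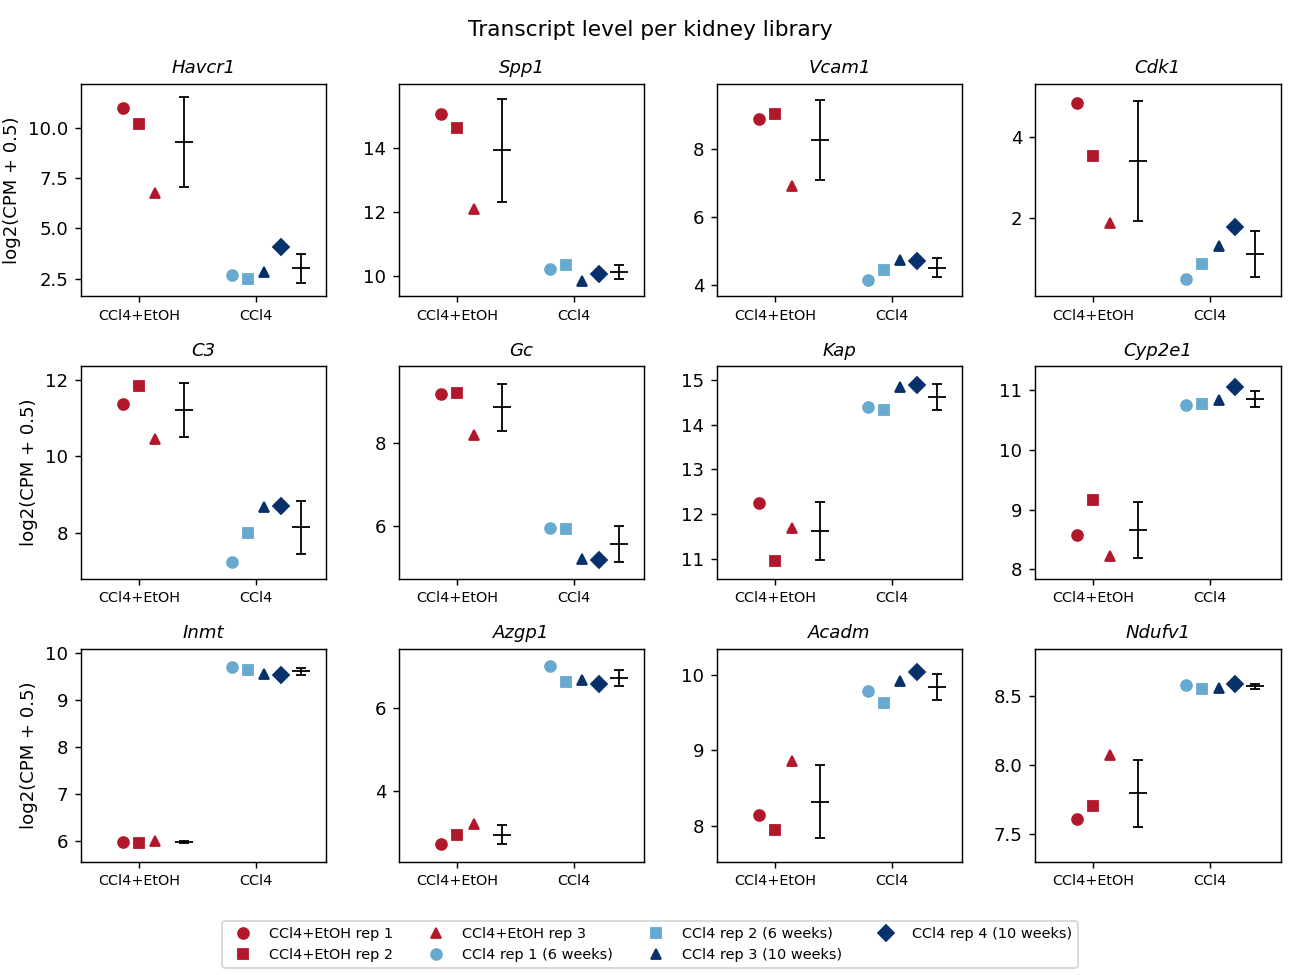
Level of 12 genes per library as log2(CPM + 0.5) on the y axis, with CCl4+EtOH left of CCl4 in each panel; points are libraries and the bar beside them is the mean with its SD. Havcr1, Spp1, Vcam1, C3 and Gc are higher and Kap, Cyp2e1, Inmt, Azgp1, Acadm and Ndufv1 lower in all 3 CCl4+EtOH libraries, and CCl4+EtOH replicate 3 (triangle) lies between replicates 1 and 2 and the CCl4 libraries for Havcr1, Cdk1 and Acadm, while it lies with replicates 1 and 2 for Inmt.

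Cell cycle genes were higher in CCl4+EtOH kidneys for 31 of 32 tested members, with a median log2 change of 1.93 and none lower. This count rested on CCl4+EtOH replicate 1: without it 14 members passed, and without replicate 3 the count was 31. Cdk1, the kinase that drives entry into mitosis, stood at 27.5, 11.1 and 3.19 CPM in CCl4+EtOH kidneys, against 0.933, 1.33, 2.01 and 2.98 CPM in CCl4 kidneys, a log2 change of 2.95 ± 0.57 (SE, adjusted p = 0.00193). Mki67, the proliferation antigen, stood at 133, 47.6 and 10.8 CPM, against 4.41, 4.79, 7.38 and 11.9 CPM in CCl4 kidneys. For Mki67 the groups overlapped, since CCl4+EtOH replicate 3 lay below CCl4 replicate 4. The groups did not overlap for 7 of the 31 called members, against 2333 of the 3007 genes called higher, among the 7 the replication helicase subunits Mcm3 (1.65 ± 0.28 on the log2 scale), Mcm2 (0.85 ± 0.16) and Mcm5 (1.70 ± 0.33). The list's difference from CCl4 in replicate 3 was 10.2% of that in replicates 1 and 2.

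Promoters of cell cycle genes that are switched on late in the cycle are known to often carry a pair of short elements. These are the cell-cycle homology element and the CCAAT box. The list also holds replication genes such as Mcm2, to which this background need not apply. In RefSeq windows of 250 bases before the gene start (build GRCm38.p6, read by gene symbol and not from the build of the counts), TTTGAA or TTCGAA on either strand occurred in 36.0% of the 25 list members with a window, against 12.5% of 11630 tested genes with one. CCAAT on either strand occurred in 80.0% against 35.9%, and both together in 36.0% against 4.9%. The matches describe letters in these windows and not sites of binding. The windows of 4 members that hold both and have small p-values are shown 5′ to 3′ on the strand of the gene, with matches to either element in capitals (ATTGG is CCAAT on the other strand). They are Mcm2 (chr6:88898781-88899030, minus strand), Cdk1 (chr10:69352913-69353162, minus strand), Mki67 (chr7:135716380-135716629, minus strand) and Bub1b (chr2:118597961-118598210, plus strand).
Mcm2: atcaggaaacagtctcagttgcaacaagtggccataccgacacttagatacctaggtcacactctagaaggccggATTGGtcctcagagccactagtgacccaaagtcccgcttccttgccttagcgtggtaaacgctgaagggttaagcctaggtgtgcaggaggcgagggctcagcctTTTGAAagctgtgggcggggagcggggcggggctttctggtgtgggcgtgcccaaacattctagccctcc
Cdk1: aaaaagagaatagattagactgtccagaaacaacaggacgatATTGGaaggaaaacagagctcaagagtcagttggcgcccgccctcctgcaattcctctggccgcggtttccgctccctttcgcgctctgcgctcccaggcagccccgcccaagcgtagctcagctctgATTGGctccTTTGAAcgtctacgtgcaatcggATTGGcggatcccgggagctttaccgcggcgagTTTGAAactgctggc
Mki67: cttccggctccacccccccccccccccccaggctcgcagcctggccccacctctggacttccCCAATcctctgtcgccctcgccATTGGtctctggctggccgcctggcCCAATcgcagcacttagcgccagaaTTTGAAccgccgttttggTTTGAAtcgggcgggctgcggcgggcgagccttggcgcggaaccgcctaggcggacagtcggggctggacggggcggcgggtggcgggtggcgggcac
Bub1b: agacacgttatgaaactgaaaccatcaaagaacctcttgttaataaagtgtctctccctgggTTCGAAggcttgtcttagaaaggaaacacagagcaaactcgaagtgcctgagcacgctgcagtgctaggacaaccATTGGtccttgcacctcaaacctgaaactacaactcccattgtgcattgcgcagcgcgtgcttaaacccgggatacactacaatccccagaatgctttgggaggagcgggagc
Of these, Mki67 and Bub1b, a kinase of the spindle checkpoint, changed by 3.17 ± 0.61 and 2.14 ± 0.48 (SE) on the log2 scale.

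Targets of p53 were higher for 10 of 20 tested members (median 0.52) and lower for none. The higher count was 6 without CCl4+EtOH replicate 1 and 8 without replicate 2. Without replicate 3, 13 were higher and 2 lower. Cdkn1a, the p21 inhibitor of cyclin-dependent kinases, stood at 36.1, 40.2 and 12.5 CPM in CCl4+EtOH kidneys, against 10.5, 8.83, 11.99 and 10.8 CPM in CCl4 kidneys. Replicate 3 lay just above the highest CCl4 library, and the log2 change was 1.495 ± 0.297 (SE, adjusted p = 0.00221). The death receptor Eda2r changed by 2.19 ± 0.33 and the pro-apoptotic genes Pmaip1 by 1.37 ± 0.21 and Bbc3 by 1.09 ± 0.22, each without overlap between the groups.

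Immediate early genes, which respond to stress and growth signals within minutes, were higher for 13 of 19 tested members (median 1.38) and lower for none. Atf3, a stress-induced transcription factor, stood at 17.5, 18.3 and 6.26 CPM in CCl4+EtOH kidneys, against 1.55, 1.78, 2.36 and 2.07 CPM in CCl4 kidneys, a log2 change of 2.86 ± 0.40 (SE, adjusted p = 2.83e-04). Klf6 changed by 2.02 ± 0.29, Fosl2 by 1.74 ± 0.30 and Egr2 by 3.01 ± 0.53.

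Genes of NF-kB signalling and cytokines were higher for 26 of 30 tested members (median 1.52) and lower for none. Without CCl4+EtOH replicates 1, 2 and 3 in turn, 22, 23 and 30 members were higher. Among the ligands, the neutrophil chemokine Cxcl2 stood at 11.6, 10.6 and 2.89 CPM in CCl4+EtOH kidneys, against 0, 0.197, 0.532 and 0.304 CPM in CCl4 kidneys, a log2 change of 5.03 ± 0.92 (SE, adjusted p = 0.00142). The groups did not overlap, which the rule that named Cxcl2 required, and replicate 3 was again the lowest CCl4+EtOH library. Tnf was low in all libraries, at 1.59, 2.18 and 0.475 CPM in CCl4+EtOH kidneys, against 0.466, 0.296, 0.650 and 0.608 CPM in CCl4 kidneys, and it overlapped between the groups (log2 change 1.49 ± 0.53, adjusted p = 0.0422). Among regulators, Nfkb2, a subunit of the factor itself, changed by 1.37 ± 0.16, and Nfkbiz, a nuclear cofactor, by 2.19 ± 0.29. The membrane chemokine Cxcl16 changed by 1.39 ± 0.17.

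All 14 genes of MHC and antigen presentation were higher in CCl4+EtOH kidneys (median 1.08). The groups did not overlap for 13 of them, against 2333 of the 3007 genes called higher. B2m, the light chain of class I molecules, stood at 671, 657 and 506 CPM in CCl4+EtOH kidneys, against 236, 260.3, 344 and 316 CPM in CCl4 kidneys (log2 change 1.08 ± 0.14, adjusted p = 1.74e-04). Tap2, a subunit of the peptide transporter for class I molecules, stood at 47.6, 47.5 and 45.0 CPM, against 28.9, 27.9, 28.9 and 30.2 CPM in CCl4 kidneys. For Tap2, replicate 3 lay with replicates 1 and 2. H2-K1, a class I heavy chain, changed by 1.08 ± 0.15 and H2-DMa, a class II chaperone, by 1.47 ± 0.21; H2 genes resemble each other and may share reads.

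Interferon-stimulated genes were higher for 23 of 28 tested members (median 0.90), and Rsad2 was lower at -0.33. Rsad2 did not pass with CCl4+EtOH replicate 1 or 2 or CCl4 replicate 2 or 3 left out, nor against either schedule alone. The groups did not overlap for 7 of the 23 called higher, against 2333 of 3007 over all genes. The higher count was 14 without CCl4+EtOH replicate 1 and 12 without replicate 2. Ddx58, a sensor of viral RNA, stood at 88.2, 88.5 and 51.1 CPM in CCl4+EtOH kidneys, against 38.1, 34.5, 41.3 and 45.5 CPM in CCl4 kidneys (log2 change 0.93 ± 0.16, adjusted p = 8.94e-04). CCl4+EtOH replicate 3 lay just above the CCl4 libraries for Ddx58, and over the list its difference from CCl4 was 8.3% of that in replicates 1 and 2. The RNA sensor Ifih1 (0.70 ± 0.14 on the log2 scale) and the guanosine triphosphatase Irgm1 (0.89 ± 0.18) also separated the groups.

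Complement genes were higher for 14 of 19 tested members (median 1.12), while Cd55, which restrains complement on cell surfaces, was lower at -0.95. C3, the central component, stood at 2637, 3635 and 1402 CPM in CCl4+EtOH kidneys, against 151, 256, 408 and 415 CPM in CCl4 kidneys, a log2 change of 3.06 ± 0.37 (SE, adjusted p = 1.47e-04). All 3 CCl4+EtOH libraries lay well above the CCl4 libraries, and among the CCl4 libraries the 10-week ones were the higher. C6, a component of the membrane attack complex, changed by 2.09 ± 0.25.

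Macrophage markers were higher for 16 of 20 members (median 1.37). Their summed level was 996, 1199 and 821 CPM in CCl4+EtOH kidneys, against 278.2, 391, 695 and 454 CPM in CCl4 kidneys. C1qa, a subunit of C1q that macrophages make, stood at 76.1, 89.1 and 55.4 CPM in CCl4+EtOH kidneys, against 14.1, 19.6, 36.9 and 24.9 CPM in CCl4 kidneys (log2 change 1.63 ± 0.26, adjusted p = 7.21e-04). Itgax, the integrin CD11c, changed by 1.55 ± 0.18. Markers of lymphocytes and neutrophils were not called: edgeR called 0 of 13 for T and NK cells, 0 of 8 for B and plasma cells and 0 of 9 for neutrophils. At an unadjusted p under 0.05 the counts were 1, 0 and 0, DESeq2 called 1, 0 and 0, and limma-voom called 1 T and NK cell marker higher and 1 B and plasma cell marker lower. These markers were low, with sums of 19.2, 13.6 and 14.2 CPM for T and NK cells in CCl4+EtOH kidneys, against 11.0, 12.8, 15.8 and 14.2 CPM in CCl4 kidneys.

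Acute phase genes, best known as plasma proteins of the liver, were higher for 12 of 21 members (median 1.47). Cp, the copper carrier ceruloplasmin, stood at 933, 1276 and 323 CPM in CCl4+EtOH kidneys, against 101, 101, 113 and 90.2 CPM in CCl4 kidneys, a log2 change of 3.06 ± 0.35 (SE, adjusted p = 1.28e-04). Serpina10, an inhibitor of coagulation proteases, stood at 182, 128 and 11.3 CPM, against 1.04, 1.33, 1.30 and 2.43 CPM in CCl4 kidneys. Both genes separated the groups. Fibrinogen chains were less apart in replicate 3: Fgg stood at 351, 454 and 33.0 CPM in CCl4+EtOH kidneys against 22.0, 21.9, 17.4 and 27.1 CPM in CCl4 kidneys, and Fga in CCl4+EtOH replicate 3, at 40.4 CPM, lay below CCl4 replicate 1, at 42.5 CPM. Of the 15 hepatocyte markers edgeR, DESeq2 and limma-voom called 0, and 0 had an unadjusted p under 0.05 in edgeR; their sum was 680, 867 and 810 CPM in CCl4+EtOH kidneys, against 887, 731, 774 and 850 CPM in CCl4 kidneys.

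Genes of extracellular matrix and fibrosis were higher for 28 of 34 members (median 1.15) and lower for none. Without CCl4+EtOH replicates 1, 2 and 3 in turn, 20, 26 and 30 members were higher. The growth factor Pdgfb stood at 71.0, 68.2 and 34.1 CPM in CCl4+EtOH kidneys, against 22.3, 21.1, 23.9 and 22.1 CPM in CCl4 kidneys (log2 change 1.37 ± 0.20, adjusted p = 3.52e-04). Collagen XVIII (Col18a1) changed by 1.02 ± 0.15, and the groups did not overlap for either gene. Fibrillar collagens were less separated, with Col1a1 at 337, 161 and 121 CPM in CCl4+EtOH kidneys, against 37.2, 88.6, 80.1 and 85.2 CPM in CCl4 kidneys, and Col3a1 did not pass (1.21 ± 0.50, adjusted p = 0.0805).

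Oxidative phosphorylation genes fell together. Of 36 members, 35 were lower in CCl4+EtOH kidneys and none was higher, with a median log2 change of -0.60. Ndufv1, a catalytic subunit of complex I, stood at 194, 208 and 268 CPM in CCl4+EtOH kidneys, against 384, 376, 377 and 385 CPM in CCl4 kidneys, a log2 change of -0.77 ± 0.10 (SE, adjusted p = 2.24e-04). The 4 CCl4 libraries were nearly equal, and CCl4+EtOH replicate 3 lay between them and the other two. Ndufa4 changed by -0.64 ± 0.10, Ndufa1 by -0.65 ± 0.10 and Ndufa5 by -0.51 ± 0.09. The list's difference in replicate 3 was 31.3% of that in replicates 1 and 2. With CCl4+EtOH replicates 1, 2 and 3 left out in turn, 25, 26 and 36 members were lower.

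Fatty acid oxidation genes were lower for 24 of 34 members (median -0.80) and higher for none. That count was 18 without CCl4+EtOH replicate 1 or 2 and 30 without replicate 3. Acadm, the medium-chain acyl-CoA dehydrogenase, stood at 283, 245 and 466 CPM in CCl4+EtOH kidneys, against 886, 792, 972 and 1051 CPM in CCl4 kidneys (log2 change -1.48 ± 0.19, adjusted p = 1.74e-04). The isomerase Eci2 changed by -0.83 ± 0.11, the electron carrier Etfa by -0.91 ± 0.14 and the hydratase Echs1 by -0.81 ± 0.13. Angptl4, which peroxisome proliferator-activated receptors induce, did not pass (-0.38 ± 0.36, adjusted p = 0.442). Cholesterol synthesis genes were lower for 8 of 23 members, among them Cyp51 at -1.85 ± 0.32 and Idi1 at -2.03 ± 0.34, and 1 was higher. Of 22 glycolysis and gluconeogenesis genes, 2 were higher and 2 lower (median -0.08), below the 18.7% and 16.2% of all genes. Pfkp and Slc2a1 were higher at 1.03 ± 0.17 and 0.35 ± 0.11, and Fbp1 and Pcx lower at -0.73 ± 0.19 and -1.11 ± 0.34. The lower count of cholesterol genes was 5 without CCl4+EtOH replicate 1 or 2, and that of glycolysis and gluconeogenesis genes was 0 without replicate 1, 1 without replicate 2 and 10 without replicate 3.

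Androgen-regulated genes of the mouse kidney were lower for 11 of 15 members, with a median log2 change of -2.01, and none was higher. Kap, the kidney androgen-regulated protein of the proximal tubule, stood at 4873, 1969 and 3269.7 CPM in CCl4+EtOH kidneys, against 21747, 20484, 29404 and 30439.8 CPM in CCl4 kidneys, a log2 change of -2.92 ± 0.30 (SE, adjusted p = 5.18e-05). Azgp1, a secreted glycoprotein, stood at 6.00, 7.06 and 8.59 CPM, against 129.8, 99.4, 103 and 96.5 CPM in CCl4 kidneys (log2 change -3.89 ± 0.20, adjusted p = 3.73e-07). For both genes all CCl4+EtOH libraries lay below all CCl4 libraries, and replicate 3 lay with its group. Slc22a7, an organic anion transporter, changed by -3.66 ± 0.43 and the fatty acid hydroxylase Cyp4a12a, whose reads near-identical Cyp4a genes may share, by -3.80 ± 0.38. Over the list, the difference of replicate 3 was 94.0% of that of replicates 1 and 2.

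Enzymes that handle CCl4 and ethanol were in part lower. Cyp2e1 stood at 382, 569 and 299 CPM in CCl4+EtOH kidneys, against 1715, 1742, 1829 and 2124 CPM in CCl4 kidneys, a log2 change of -2.15 ± 0.26 (SE, adjusted p = 1.14e-04). Replicate 3 was the lowest of all libraries for this gene. Of 14 tested genes of ethanol and aldehyde metabolism, 8 were lower and 2 higher. Aldh3a2, a microsomal aldehyde dehydrogenase, changed by -1.13 ± 0.11, and Aldh2, the main enzyme that clears acetaldehyde, by -0.88 ± 0.17. Acss2, which activates acetate, changed by -1.25 ± 0.20, while the mitochondrial Aldh1b1 was higher at 1.44 ± 0.20. Adh1, the classical alcohol dehydrogenase, stood at 484, 313 and 202 CPM in CCl4+EtOH kidneys, against 389, 371, 603 and 593 CPM in CCl4 kidneys, and did not pass (-0.55 ± 0.31, adjusted p = 0.182).

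Xenobiotic cytochrome P450 genes were lower for 11 of 22 members (median -0.73) and higher for none. Without CCl4+EtOH replicate 3, 15 were lower and 2 higher. Without replicates 1 and 2 in turn, 8 and 9 were lower. Cyp4b1, which acts on fatty acids and foreign compounds, stood at 779.8, 845 and 1619 CPM in CCl4+EtOH kidneys, against 4106, 4078, 4447 and 4824 CPM in CCl4 kidneys (log2 change -2.01 ± 0.28, adjusted p = 2.65e-04). The closely related Cyp2a4 and Cyp2a5, which can share reads, changed by -2.26 ± 0.27 and -2.57 ± 0.42. Inmt, a methyltransferase of tryptamines, belonged to no list and stood at 62.7, 61.3 and 63.4 CPM in CCl4+EtOH kidneys, against 828, 792, 756 and 743 CPM in CCl4 kidneys (log2 change -3.64 ± 0.27, adjusted p = 1.08e-05). For Inmt, as for Azgp1 and Cyp2e1, replicate 3 lay with replicates 1 and 2.

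Of 31 genes of oxidative stress and glutathione, 7 were higher, near the 18.7% of all genes, and 11 were lower, against 16.2% of all genes. Sod1, the cytosolic superoxide dismutase, stood at 155, 135 and 188 CPM in CCl4+EtOH kidneys, against 309, 301, 366 and 370.0 CPM in CCl4 kidneys (log2 change -1.08 ± 0.13, adjusted p = 1.09e-04). The peroxidase Gpx4 changed by -0.54 ± 0.09, catalase (Cat) by -1.06 ± 0.21 and the glutathione transferase Gsta3 by -1.05 ± 0.18, while the conjugate exporter Abcc3 was higher at 1.55 ± 0.22. Hmox1, the haem oxygenase of the stress response, did not pass (0.11 ± 0.26, adjusted p = 0.780). Endoplasmic reticulum (ER) stress genes were higher for 9 of 18 members, led by the protein folding enzymes Pdia6 (0.68 ± 0.16) and Pdia4 (0.56 ± 0.15), the cofactor Sdf2l1 (1.26 ± 0.33) and the chaperone Hsp90b1 (0.66 ± 0.18), while Herpud1, of ER-associated degradation, was lower at -0.71. The count of ER members was 1 without CCl4+EtOH replicate 1 and 6 without replicate 2, and the transcription factors Atf4 and Ddit3 did not pass in the full data (0.12 and 0.23).

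Proximal tubule markers were lower for 21 of 36 members (median -0.78) and higher for 3, the transporters Slc13a1 and Slc5a1 and the peptidase Dpp4. Slc7a13, an amino acid transporter, stood at 191, 55.1 and 254 CPM in CCl4+EtOH kidneys, against 1134, 917, 1229 and 1149 CPM in CCl4 kidneys (log2 change -2.73 ± 0.43, adjusted p = 6.00e-04). The organic ion transporters Slc22a2 and Slc22a19 changed by -1.39 ± 0.22 and -2.03 ± 0.26. Slc34a1, which takes up phosphate, stood at 1544, 1916 and 5747 CPM in CCl4+EtOH kidneys, against 6622, 6858, 5956 and 7515 CPM in CCl4 kidneys, with replicate 3 close to the CCl4 libraries. The endocytic receptors Lrp2 and Cubn did not pass (-0.59 and -0.41). The count was 31 without CCl4+EtOH replicate 3, 13 without replicate 1 and 14 without replicate 2.

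Further along the nephron the same libraries set the counts. Loop of Henle and distal tubule markers were lower for 12 of 21 members, with Klk1 at -1.08 ± 0.22, Ppp1r1a at -1.13 ± 0.24 and Wnk4 at -0.66 ± 0.15, and the calcium channel Trpv5 was higher at 0.90 ± 0.20. The lower count was 15 without CCl4+EtOH replicate 3, 4 without replicate 1 and 5 without replicate 2, and 8 and 7 without CCl4 replicates 1 and 2. Collecting duct markers were lower for 6 of 19 members, with the water channel Aqp3 at -0.90 ± 0.22, Slc4a9 at -0.67 ± 0.17 and Rhcg at -0.69 ± 0.21, and for 3 members without CCl4+EtOH replicate 1, 2 without replicate 2, 10 without replicate 3, and 3 and 4 without CCl4 replicates 1 and 2. Podocyte markers were higher for 3 of 15 (among them Synpo and Plce1, at 0.33 and 0.48), near the 18.7% of all genes, and endothelial markers lower for 2 of 18 (Robo4 and Ehd3, at -0.48 and -0.51), below the 16.2% of all genes. Of the podocyte markers 1 was higher without CCl4+EtOH replicate 2, and 4 were lower without replicate 3. Of the endothelial markers 5 were lower without CCl4+EtOH replicate 3 or CCl4 replicate 4, and 1 was lower without CCl4+EtOH replicate 1.

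Gc, the plasma carrier of vitamin D, stood at 579.8, 587 and 293 CPM in CCl4+EtOH kidneys, against 61.6, 60.1, 36.5 and 35.6 CPM in CCl4 kidneys, a log2 change of 3.33 ± 0.27 (SE, adjusted p = 1.26e-05). Of the other genes of vitamin D and phosphate, Cyp27a1 was lower at -0.66 ± 0.15, the receptor Vdr at -0.74 ± 0.22 and Slc34a1 at -1.13 ± 0.35. Of that list 4 of 12 were lower, 1 without CCl4+EtOH replicate 1 or 2 and 2 without CCl4 replicate 4. In the renin-angiotensin system, the converting enzyme Ace stood at 178, 85.5 and 90.3 CPM in CCl4+EtOH kidneys, against 289, 276.98, 333 and 488 CPM in CCl4 kidneys (log2 change -1.55 ± 0.29, adjusted p = 0.00162). The precursor Agt stood at 133, 147 and 113 CPM, against 85.5, 70.9, 49.7 and 51.3 CPM in CCl4 kidneys (log2 change 1.03 ± 0.25, adjusted p = 0.00718). Both separated the groups, in opposite directions.

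Transcripts of other tissues varied between libraries. Hba-a1, a haemoglobin chain, stood at 255, 144 and 2010.0 CPM in CCl4+EtOH kidneys, against 836, 731, 921 and 792 CPM in CCl4 kidneys, so CCl4+EtOH replicate 3 was the highest and replicates 1 and 2 the lowest of the 7. Adipocyte markers had a mean of 3.63, 3.76 and 6.01 log2(CPM + 0.5) in CCl4+EtOH kidneys, against 4.92, 4.81, 6.29 and 4.86 in CCl4 kidneys, with Lpl the 1 member of 14 called, lower at -1.94 ± 0.43. With CCl4+EtOH replicate 3 left out, 4 adipocyte markers and 8 of 10 blood cell markers were lower, against 1 of each (Lpl, and the red cell anion exchanger Slc4a1 at -1.05) with it. Adrenal markers summed to 10.3, 11.2 and 10.8 CPM in CCl4+EtOH kidneys, against 9.59, 10.5, 31.4 and 11.3 CPM in CCl4 kidneys, with 6 to 8 of their 15 members at 0 outside CCl4 replicate 3 and 3 at 0 in it. What part these levels had in the changes above was not tested.

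**Figure D3:**
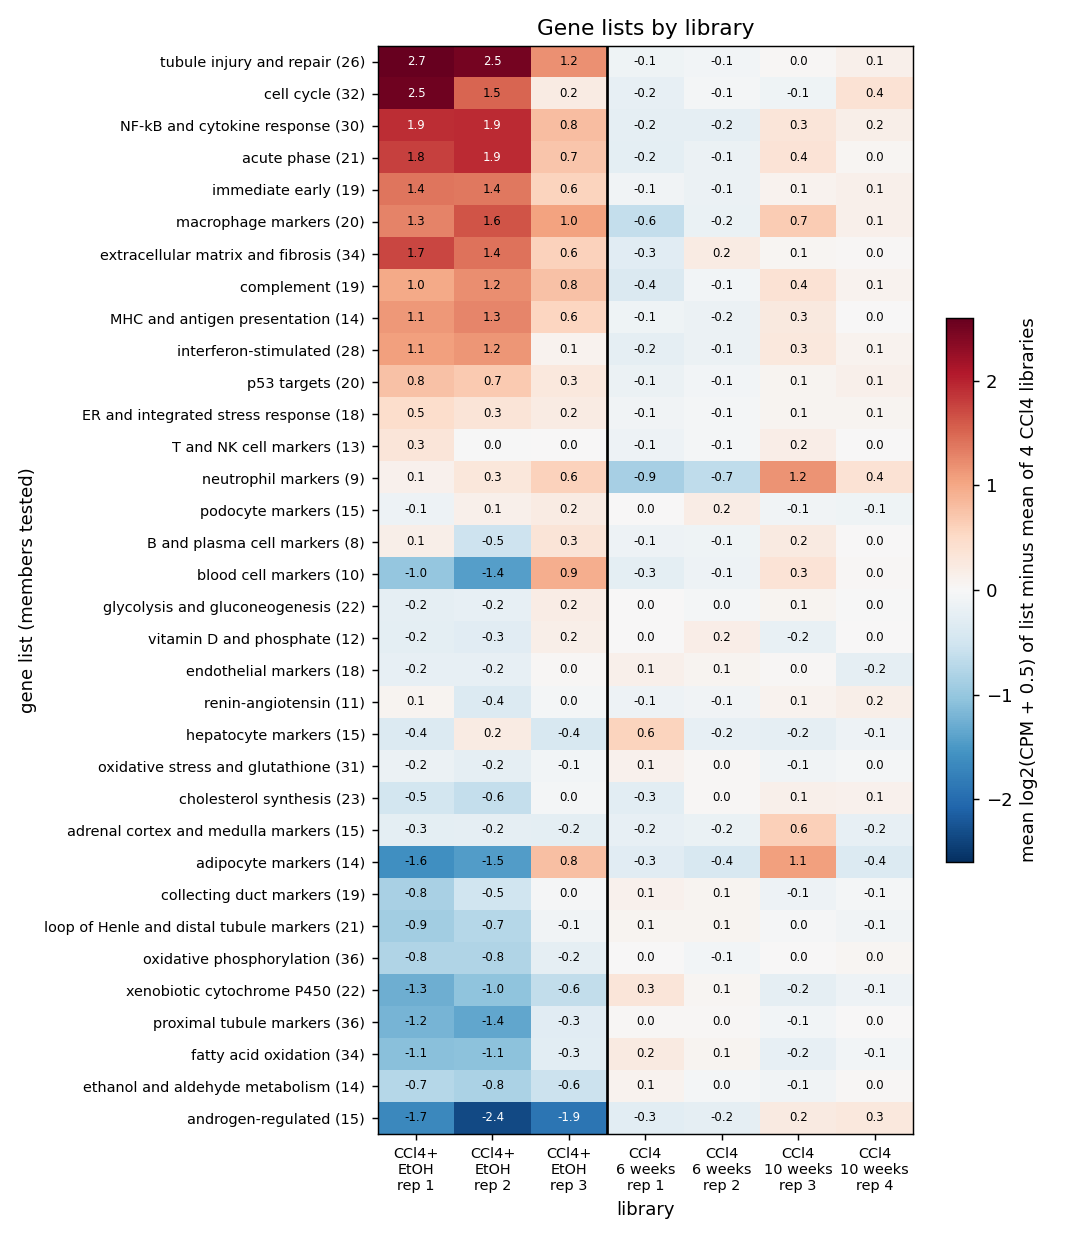
Mean log2(CPM + 0.5) of each gene list (rows, with the number of members tested) in each library (columns), minus the mean of the 4 CCl4 libraries; red is higher and blue lower. CCl4+EtOH replicates 1 and 2 are strongly coloured for some lists, such as tubule injury and repair, and pale for others, such as podocyte markers. Replicate 3 is paler than replicates 1 and 2 for the cell cycle list, where its difference is 10.2% of theirs. It is near them for the androgen-regulated list at 94.0%, the ethanol and aldehyde list at 71.8%, the macrophage list at 71.5% and the complement list at 69.8%, and goes the other way for adipocyte and blood cell markers.

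Several of the genes with the largest changes were near 0 in either group. Vgf, a neuropeptide precursor, had 77 counts over the CCl4+EtOH libraries and 0 over the CCl4 libraries, at least 25.6-fold higher when 3 counts over the CCl4 group are taken as the floor. Il1f6, an interleukin-36 cytokine, stood at 33.3, 12.6 and 0.993 CPM in CCl4+EtOH kidneys, against 0.155, 0.0493, 0 and 0.0608 CPM in CCl4 kidneys. Il1rn, the interleukin-1 receptor antagonist, stood at 48.6, 20.1 and 3.24 CPM, against 0.466, 0.296, 1.54 and 1.09 CPM in CCl4 kidneys, a log2 change of 4.85 ± 1.05 (SE, adjusted p = 0.00402). All 3 separated the groups, but the rule that named these genes required this, so it is no further result. Aoc1, the diamine oxidase that degrades histamine and polyamines, stood at 361, 266 and 63.8 CPM in CCl4+EtOH kidneys, against 4.92, 5.97, 4.55 and 6.26 CPM in CCl4 kidneys (log2 change 5.40 ± 0.48, adjusted p = 3.76e-05). The protease Mmp7 was higher at 5.85, the sulfotransferase Sult4a1 at 5.47, Spaca7, a protein of the sperm acrosome, at 6.06 and the multi-copy Y-linked gene Rbmy, whose reads cannot be assigned to a copy, at 6.24 on the log2 scale. Raet1a, of a family of ligands for a killer cell receptor, had 79 counts against 2, a ratio of 39.4 with an exact interval of 10.6 to 331, and Atp13a4, an ATPase, 105 counts against 3, a ratio of 34.9 with an interval of 11.6 to 172.

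On the lower side, Neurog2, a transcription factor, had 2 counts in CCl4+EtOH kidneys and 123 in CCl4 kidneys, a ratio of 61.6 in favour of CCl4 with an exact interval of 16.7 to 515 that covers counting error only. Pzp, a protease inhibitor of the alpha-2-macroglobulin family, stood at 13.2, 12.8 and 7.77 CPM in CCl4+EtOH kidneys, against 169, 136, 315 and 378 CPM in CCl4 kidneys, a log2 change of -4.46 ± 0.58 (SE, adjusted p = 2.65e-04). Dnase1, the secreted nuclease, stood at 59.3, 52.6 and 112 CPM, against 1052, 732, 629.8 and 779 CPM in CCl4 kidneys (log2 change -3.42 ± 0.38, adjusted p = 9.13e-05). Hpd, an enzyme of tyrosine breakdown, stood at 1.75, 7.51 and 5.66 CPM, against 119.7, 75.2, 33.7 and 41.6 CPM in CCl4 kidneys. The groups did not overlap for any of these, but the rule that named these genes required this, so it is no further result. Slco1a1, an organic anion transporter, changed by -3.83 ± 0.83, the collagen Col19a1 by -4.72 ± 0.84, the phosphodiesterase subunit Pde6a by -3.37 ± 0.38, the dynein Dnah9 by -4.45 ± 0.73, the catenin Ctnna2 by -3.99 ± 0.82, Pnliprp1, a lipase-related protein, by -3.99 ± 0.58 and the claudin Cldn18 by -3.67 ± 0.92.

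Since only CCl4 replicates 3 and 4 match the CCl4+EtOH mice in time, the 2 CCl4 schedules were set against each other and against the CCl4+EtOH group. Between 10-week and 6-week CCl4 kidneys, edgeR called 0 of 16442 genes at an adjusted p under 0.05 (0.0%), and 1096 (6.67%) had an unadjusted p under 0.05, where 822.1 would have it by the level alone. DESeq2 called 25 genes and limma-voom 8. With 2 mice a schedule, a count of 0 does not show that the schedules were alike. Libraries of the same schedule differed by a median of 0.13 on the log2 scale in both pairs, and those of different schedules by 0.14 to 0.18. CCl4+EtOH replicates 1 and 2 differed from the 4 CCl4 libraries by 0.35 to 0.39, and CCl4+EtOH replicate 3 by 0.19 to 0.21, close to the values between the schedules. Over all genes tested, the median absolute log2 change was 0.30 between CCl4+EtOH and CCl4 and 0.15 between the schedules.

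Against the 10-week CCl4 libraries alone, CCl4+EtOH kidneys had 1942 genes higher (11.8%) and 1811 lower (11.0%), and against the 6-week libraries alone 2313 higher (14.1%) and 1981 lower (12%). Both fits share the CCl4+EtOH libraries, so their counts are given side by side only. Those fits borrow the spread of all 14 libraries. When only the 3 CCl4+EtOH and the 2 10-week libraries were fitted, the test called 22 genes higher (0.137%) and 115 lower (0.718%), with 4314 at an unadjusted p under 0.05. In the fit of all libraries without CCl4 replicate 3 the time-matched counts were 541 and 821, 298 and 505 with CCl4 replicate 4 left out, and 3102 and 3111 with CCl4+EtOH replicate 3 left out. The time-matched count thus moved several-fold with single libraries.

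Log2 changes were close against both schedules for some genes and not for others, and no difference between the schedules passed after adjustment in edgeR. Havcr1 changed by 6.57 against the 10-week and 7.62 against the 6-week libraries, Spp1 by 4.41 and 4.09, Kap by -3.15 and -2.65, Cyp2e1 by -2.25 and -2.06, Inmt by -3.59 and -3.70 and Ndufv1 by -0.77 in both. Cxcl2 changed by 4.30 against the 10-week and 6.29 against the 6-week libraries, C3 by 2.63 and 3.65, and C1qa by 1.25 and 2.12. On the lower side Hpd changed by -2.92 against the 10-week and -4.30 against the 6-week libraries, Col19a1 by -5.40 and -3.46, Idi1 by -2.46 and -1.42 and Lpl by -2.37 and -1.33. These 7 genes were picked after their values were seen. Of 127 called genes named by the rule, 111 passed against the 10-week and 118 against the 6-week libraries. Of all 5610 called genes, 62.3% and 69.8% passed in the same direction. The named genes were picked by the pooled contrast, which holds the same libraries, so their higher share does not show that the schedules agree. Tnf, Vgf, Pcx and Slc34a1 passed against neither. Vgf was at 7.38 in both, Pcx at -1.07 and -1.15 and Slc34a1 at -1.13 and -1.14. Vdr and the ER genes Pdia6, Pdia4, Sdf2l1 and Hsp90b1 did not pass against the 10-week libraries and passed against the 6-week libraries. The same held for Plce1, Lnpep, Robo4, Ehd3, Slc4a9, Slc4a1 and Rhcg. Agt, Cldn18, Synpo and Slc2a1 passed against the 10-week and not against the 6-week libraries. By list, 21 of 26 injury genes and 13 of 14 MHC genes were higher against the 10-week libraries, and 31 of 36 oxidative phosphorylation genes and 12 of 15 androgen-regulated genes were lower. These counts too borrow the spread of all libraries. In the fit of only the 3 CCl4+EtOH and 2 10-week libraries, the injury, MHC, cell cycle and oxidative phosphorylation counts were 0. The androgen-regulated list kept 7 lower members in that fit. Of the cell cycle genes 17 of 32 were higher against the 10-week libraries, of the interferon-stimulated genes 10 of 28, of the ER stress genes 1 of 18, of the p53 targets 5 of 20 and of the acute phase genes 7 of 21. Of the loop and distal tubule markers 5 of 21 were lower, of the collecting duct markers 1 of 19, of the vitamin D and phosphate genes 1 of 12 and of the endothelial markers 0 of 18 in edgeR, 2 of them at an unadjusted p under 0.05. The median log2 change of the cell cycle list was 1.83 against the 10-week, 2.03 against the 6-week and 1.93 against all CCl4 libraries. For the interferon list it was 0.75, 1.06 and 0.90, and for the loop and distal list -0.43, -0.51 and -0.49.

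**Figure D4:**
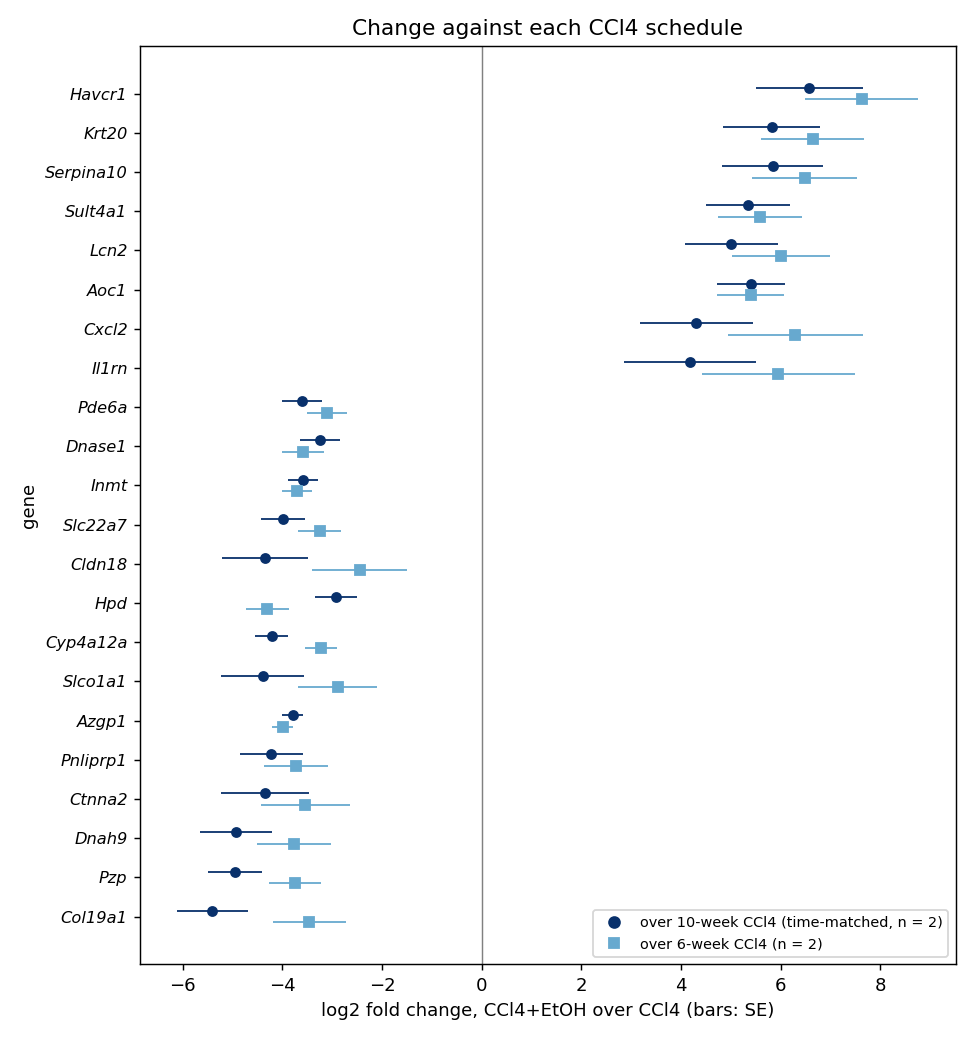
Log2 change of CCl4+EtOH over 10-week CCl4 (dark circles) and over 6-week CCl4 (light squares) on the x axis, with SE, for 22 of the 30 genes with the largest changes; the 8 left out had at most 3 counts in a group. The values run from 4.18 to 7.62 for the 8 genes on the higher side and from -5.40 to -2.45 for the 14 on the lower side.

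Of the lists, macrophage markers had the highest share of members at an unadjusted p under 0.05 between the schedules. Their mean was 4.95, 5.29 and 4.71 log2(CPM + 0.5) in CCl4+EtOH kidneys, against 4.33 and 3.79 in 10-week CCl4 kidneys and 3.04 and 3.50 in 6-week CCl4 kidneys. Of 20 members, 12 had an unadjusted p under 0.05 between the schedules, against 6.67% of all genes, but none passed after adjustment. Against the 10-week libraries 8 of the 20 were higher in CCl4+EtOH kidneys, and against the 6-week libraries 16. Itgam, the integrin CD11b, stood at 55.3, 55.0 and 24.4 CPM in CCl4+EtOH kidneys, against 22.7 and 15.7 CPM in 10-week and 5.39 and 6.96 CPM in 6-week CCl4 kidneys. Ccl2, the chemokine that draws monocytes, stood at 38.0, 53.6 and 19.3 CPM, against 5.38 and 2.98 CPM in 10-week and 0.8292 and 0.592 CPM in 6-week CCl4 kidneys. For both, the 10-week libraries lay between the other sets. Complement genes had 9 of 19 members and androgen-regulated genes 6 of 15 at an unadjusted p under 0.05 between the schedules. The complement and macrophage lists share C1qa, C1qb and C1qc, which are among the members counted in both. Neutrophil markers summed to 19.9, 21.9 and 27.0 CPM in CCl4+EtOH kidneys, against 51.7 and 23.8 CPM in 10-week and 5.18 and 7.55 CPM in 6-week CCl4 kidneys.

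**Figure D5:**
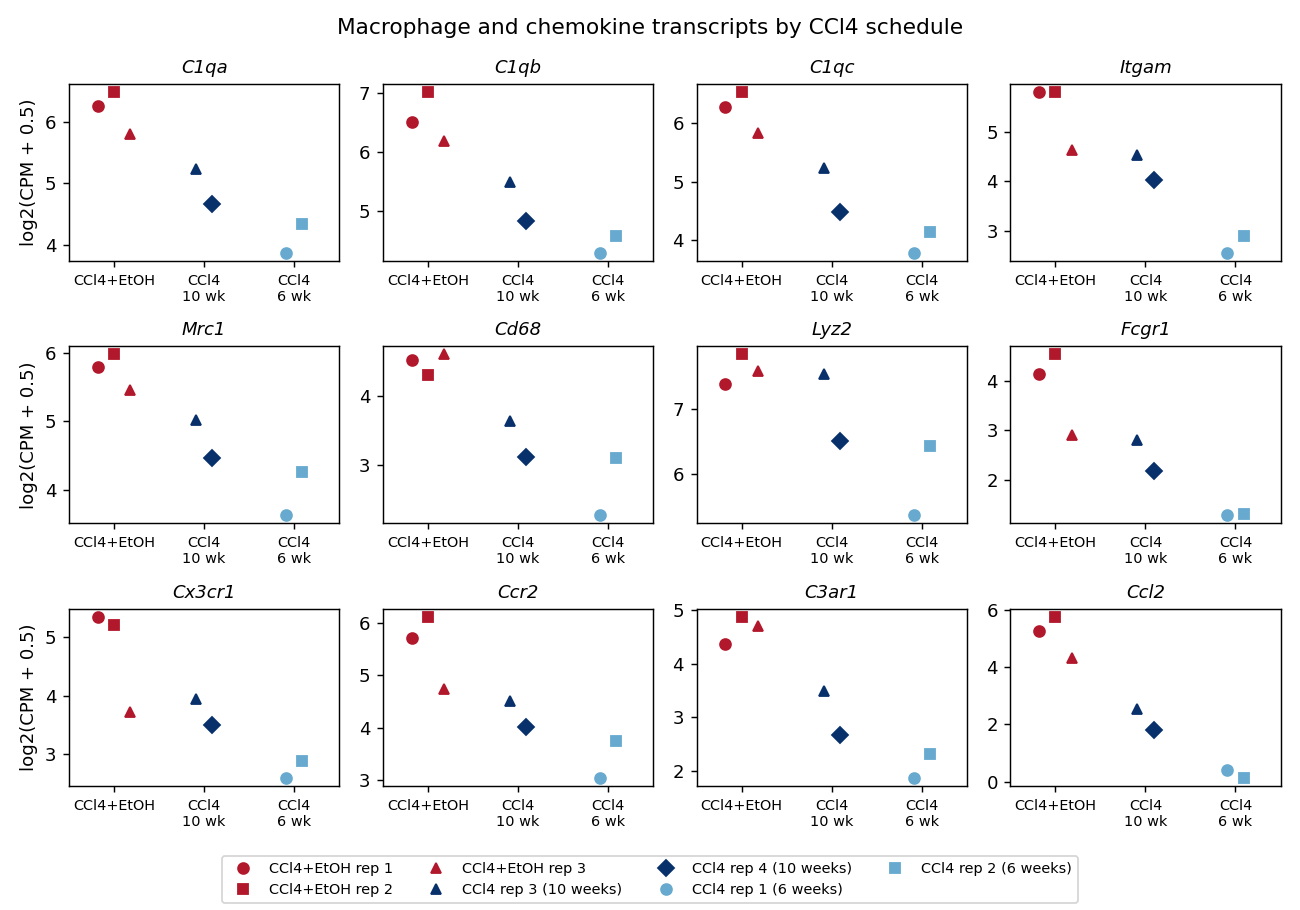
Level of 12 macrophage, complement receptor and chemokine genes, picked after their values were seen, as log2(CPM + 0.5) on the y axis in CCl4+EtOH, 10-week CCl4 and 6-week CCl4 libraries; each point is a library. The 10-week libraries lie above the 6-week ones for Itgam and Ccl2, and CCl4 replicate 3 reaches the lower end of the CCl4+EtOH libraries for Lyz2.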

How the data were processed

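Kidney RNA libraries followed a standard Illumina procedure after column extraction, per the labels' protocols. Each column of the deposited file holds a mouse's raw counts by gene symbol, which the authors did not normalize. GSNAP and build mm9 are named per the submitters' processing notes. No source used here gives the counting program, annotation or strand setting, so overlapping and antisense genes cannot be told apart and near-identical copies can share reads. Of the 15 samples, 14 had a column, and olive oil replicate 4 was not analysed here. Of 23893 rows, 27 named by a calendar date (0.173% to 0.209% of the counts of the 7 libraries) were left out, and 72 rows in 32 sets had identical counts.

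The test was that of edgeR 4.0.16, run under R 4.3.3 (filterByExpr, TMM, robust quasi-likelihood F test, Benjamini-Hochberg over 16105 genes, threshold 0.05) applied jointly to the 14 libraries of the 4 groups, whose olive oil and EtOH libraries serve only to estimate the spread. A fit of 5 groups over 16442 genes split CCl4 by schedule. Standard errors (SE) were derived from the log2 change and F. The spread behind each p-value is that between mice, as the labels name them. CPM are TMM-scaled, and log2 values of lists add 0.5. Intervals of ratios are exact at a confidence level of 0.95 and cover counting error only.

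Members and lists were chosen with earlier results of these data known. Named genes are the 15 largest changes in each direction past the threshold whose higher group averaged at least 1 CPM and whose libraries did not overlap, up to 4 members of each of 34 lists by smallest p, and Havcr1, Lcn2, Spp1, Krt20, Timp1, Tnf, Hmox1, Angptl4, Cyp2e1 and Kap; 7 predicted genes were passed over, and some genes are not reported here. Others named, such as Mki67, Fgg, Adh1, Hba-a1, Itgam and Ccl2, were chosen after their values were seen. Alternatives were DESeq2 1.42.0, limma-voom 3.58.1 with quality weights, other scalings and filters, other sets of libraries and each library left out.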

Additional observations from a re-analysis of the deposited data

Results flagged for a closer look

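In 11 of 193 values tested over the 4 CCl4 libraries, 1 library lay far from the other 3; chance alone gives about 1 in 20. CCl4 replicate 3 accounted for 5 of them. It had the highest mean of adrenal markers, at 0.52 log2(CPM + 0.5) against -0.31 to -0.27 in the other 3, with Cyp21a1 at 3.90 CPM and Cyp11b1 at 2.54 CPM, both steroid hydroxylases of the adrenal cortex. It also had the highest mean of adipocyte markers, at 6.29 against 4.81 to 4.92, and the lowest mean of proximal tubule markers, at 9.41 against 9.501 to 9.51. CCl4 replicate 1 was highest in hepatocyte markers, at 4.16 against 3.34 to 3.43. Single genes apart in 1 library were Raet1a in CCl4 replicate 4 at 0.122 CPM and Atp13a4 in CCl4 replicate 1 at 0.155 CPM, each at 0 in the other 3, Etfa in replicate 4 at 467 CPM, Gpx4 in replicate 2 at 189.8 CPM and Pdia4 in replicate 1 at 123 CPM.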

How the results depend on the processing

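Counts of genes higher and lower in CCl4+EtOH kidneys were 3007 and 2603 in the report. They lay within 1.5 times of these under DESeq2, limma-voom, other scalings, other filters, the fit of only the 7 libraries and the 6-week libraries alone. Against the 10-week CCl4 libraries alone 1942 genes were higher. Leaving out each library in turn gave 1872 to 3766 higher and 1577 to 3630 lower. Among settings chosen after seeing the data, the fit of only the 3 CCl4+EtOH and 2 10-week libraries gave 22 and 115, the 10-week contrast without CCl4 replicate 3 gave 541 and 821, and without CCl4 replicate 4 gave 298 and 505. For these the cause was not tested. Between the CCl4 schedules edgeR called 0 genes in every setting run, DESeq2 25 and limma-voom 8. No paired analysis was possible because the groups share no replicate numbers in the labels.

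Of the values of named genes under the planned settings, 2518 kept their direction and side of the threshold, 69 no longer passed, 40 newly passed and 15 reversed. Of the counts of list members over all settings, 1217 lay within 1.5 times and 279 did not, and the cause was not tested. Each list gave a higher and a lower count. A count of 0 that stayed at 0 was taken as within 1.5 times, so the 1217 overstate how stable the other counts were. All reversals were of genes that were not called. With limma-voom, Mzb1 was at -0.064 and Lep at -0.16. Without CCl4+EtOH replicate 3 they were at -0.074 and -0.90. Against the 10-week libraries Cxcr2 was at -0.17, Retnlg at -0.32, Hmox1 at -0.055 and Angptl4 at 0.17. Against the 6-week libraries Cyp21a1 was at 0.84 and Cyp11b1 at 1.67, and without CCl4 replicate 3 at 0.77 and 1.69. Without CCl4+EtOH replicate 2 Bpgm was at 0.064 and Hmox1 at -0.041, and without CCl4 replicate 1 Cps1 was at 0.020. Over all libraries left out in turn, the ranges were Mzb1 -0.074 to 0.54, Lep -0.90 to 1.93, Cyp21a1 -3.69 to 0.77, Cyp11b1 -6.58 to 1.69, Cps1 -1.25 to 0.020, Bpgm -0.46 to 0.064 and Hmox1 -0.041 to 0.30.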

Other observations

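Several members of the injury and cytokine lists did not pass the filter on low counts and are given as counts over the libraries. With no such filter, 25 members of the injury list and 27 of the NF-kB and cytokine list were higher, against 22 and 26. Sprr2f, a small proline-rich epithelial protein, had 370, 116 and 8 counts in CCl4+EtOH kidneys, against 3, 0, 0 and 0 in CCl4 kidneys. The chemokine Ccl20 had 314, 73 and 8 counts, against 0, 2, 0 and 4 in CCl4 kidneys. Areg, a ligand of the epidermal growth factor receptor, had 45, 46 and 6 counts, against 0, 0, 1 and 3 in CCl4 kidneys, and Il6 27, 16 and 3 counts, against 1, 0, 1 and 5. CCl4+EtOH replicate 3 was the lowest of its group for each.

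Among cytochrome P450 genes of the Cyp2d cluster, whose members are alike in sequence and may share reads, the CCl4 schedules lay apart. Cyp2d9 stood at 37.7, 49.6 and 39.1 CPM in CCl4+EtOH kidneys, against 90.2 and 108 CPM in 10-week and 361 and 227 CPM in 6-week CCl4 kidneys. Cyp2d22 stood at 42.9, 53.8 and 59.2 CPM, against 27.3 and 25.4 CPM in 10-week and 53.6 and 55.0 CPM in 6-week CCl4 kidneys. Both were among the genes that DESeq2 and limma-voom called between the schedules, and edgeR called neither.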
